A study of Mus musculus with 10 samples.

Results

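CUT&Tag regions whose nearest edge lay 1 to 3 kb from the transcription start site (TSS) of their assigned gene were taken from the authors' annotation of a merged region table, as the rows annotated to a promoter at 1 to 2 kb or at 2 to 3 kb. They numbered 7097 of 69418 regions, with 3838 at 1 to 2 kb and 3259 at 2 to 3 kb. Of these, 3306 lay upstream and 3791 downstream of the TSS, and the recorded distance ran to the edge of the region closest to that TSS. The cells were mouse neural stem and progenitor cells (NSPCs), labelled either Mina53-KO (KO) or wild type (WT), from brain and without treatment. CUT&Tag covered 2 KO and 2 WT libraries and poly(A) RNA-seq 3 KO and 3 WT libraries. Nothing in the labels gives the antibody, a spike-in, the part of the brain, the age or strain of the mice, or how the knockout was made. Separate animals or cultures are not named either, so every p-value below covers the spread between these libraries, which may be technical.

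In CUT&Tag, an antibody brings a transposase to a chromatin feature, and the DNA it cuts and tags nearby is sequenced. Sequence within 1 kb of a TSS holds the core promoter and the first nucleosomes, whereas 1 to 3 kb away lie upstream regulatory DNA on one side and the first exons and introns on the other. Mina53 (gene symbol Riox2) is a JmjC-domain oxygenase, and the series title names it an arginine demethylase acting on asymmetric dimethylarginine 3 of histone H4, a mark that PRMT1 writes and that is generally linked to active promoters. NSPCs divide and can give rise to neurons and glia, and nestin, the product of Nes, is the intermediate filament protein by which they are commonly recognised.

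The sequences just upstream of the starts of 4 genes are shown because their regions had the smallest p at a gene with an annotated promoter in RefSeq: Nes and Lpin1 among regions higher in KO, and Col16a1 and Ogfr among regions lower in KO. Each is the 250 bases before the RefSeq start on GRCm38.p6, written 5′ to 3′ on the strand of the gene, with CG dinucleotides in capitals. The regions themselves lie 1 to 3 kb from the TSS that the authors assigned, on GRCm39, and their own sequence was not used here. How far each RefSeq start lies from that TSS was not measured, so a sequence may belong to another start of its gene. The intervals are chr3:87970843-87971092 on the plus strand for Nes, chr12:16610967-16611216 on the minus strand for Lpin1, chr4:130047590-130047839 on the plus strand for Col16a1 and chr2:180589157-180589406 on the plus strand for Ogfr.
Nes: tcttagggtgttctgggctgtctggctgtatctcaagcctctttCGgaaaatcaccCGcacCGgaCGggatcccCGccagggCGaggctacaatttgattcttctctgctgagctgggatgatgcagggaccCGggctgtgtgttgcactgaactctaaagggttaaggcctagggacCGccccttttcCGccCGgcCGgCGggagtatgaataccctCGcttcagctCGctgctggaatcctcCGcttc
Lpin1: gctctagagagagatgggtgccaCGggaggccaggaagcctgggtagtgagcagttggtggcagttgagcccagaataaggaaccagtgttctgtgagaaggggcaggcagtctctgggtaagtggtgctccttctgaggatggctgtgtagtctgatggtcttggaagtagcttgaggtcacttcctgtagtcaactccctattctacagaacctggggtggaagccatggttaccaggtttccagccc
Col16a1: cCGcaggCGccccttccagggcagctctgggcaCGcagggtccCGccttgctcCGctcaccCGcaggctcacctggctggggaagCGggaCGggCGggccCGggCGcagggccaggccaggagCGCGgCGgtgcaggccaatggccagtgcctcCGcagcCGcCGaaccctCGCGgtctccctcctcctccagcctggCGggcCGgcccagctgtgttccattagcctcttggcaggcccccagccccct
Ogfr: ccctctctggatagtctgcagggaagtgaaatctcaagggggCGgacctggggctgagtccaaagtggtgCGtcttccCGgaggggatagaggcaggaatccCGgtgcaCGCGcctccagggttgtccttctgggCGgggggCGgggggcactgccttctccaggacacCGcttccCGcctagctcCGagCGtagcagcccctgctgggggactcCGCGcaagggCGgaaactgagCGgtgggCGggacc

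These promoters differed in base composition. Col16a1 carried 21 CG dinucleotides with 75.6% G or C, Ogfr 17 with 67.6% and Nes 15 with 58.8%, whereas Lpin1 carried 1 with 54.8%. RefSeq promoters matched 2682 of the 3324 protein-coding genes with a region 1 to 3 kb from the TSS (80.7%), and the median over the matched promoters was 14 CG dinucleotides and 59.6% G or C in the 250 bases. Over all 27025 promoters of the table, which include noncoding genes, the median was 6 CG dinucleotides and 52% G or C. The E-box CAGCTG, searched on both strands, occurred in 12.9% of the matched promoters and in 12.8% of all promoters, and of the 4 sequences above Col16a1 held it. The letters CCAAT, also on both strands, occurred in 33.4% and 34.5%, and TTGGC in 44.4% and 41.9%. AACAAT occurred in 5.07% and 9.65%. A CCAAT with a G before it also holds the reverse complement of TTGGC, so the 2 can share bases. The RefSeq start need not be the start that the authors assigned, and letters in this window are a description only.

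The labels held in the RNA data. Riox2 averaged 3.74 ± 0.26 TPM in KO libraries and 19.2 ± 2.33 TPM in WT libraries (SD, n = 3 each). The NSPC markers Nes, Sox2, Vim, Fabp7 and Slc1a3 were all abundant. Vim averaged 3312 TPM in KO and 2028 TPM in WT and rose in KO (log2 fold change 0.69, adjusted p 0.0353, edgeR), and Slc1a3 averaged 913 TPM in KO and 1251 TPM in WT and fell (-0.47, adjusted p 0.0402, edgeR). Fabp7 averaged 4403 TPM in KO and 4320 TPM in WT and was not called. The microglial Cx3cr1 and the endothelial Cldn5 were listed at 0 in all 6 libraries. Microglial P2ry12 averaged 0.107 TPM in KO and 0.271 TPM in WT, and endothelial Pecam1 0.132 TPM in KO and 0.225 TPM in WT, and neither passed the filter for testing. Flt1, from the same list of microglial, vascular, mesenchymal and blood genes, averaged 13.5 TPM over the 6 libraries. It rose in KO (log2 fold change 1.12, adjusted p 0.00577, edgeR). Of 11 tested genes of that list 2 were higher in KO and 2 lower (1.77% and 1.66% over all genes). CUT&Tag libraries held 3369232 to 4038765 reads in regions in KO and 2913959 to 3125267 in WT, which was 6.03% to 6.09% of the library total in KO and 5.61% to 6.10% in WT. RNA-seq libraries held 19923010 to 25939376 counts. No region 1 to 3 kb from a TSS was assigned to Riox2.

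The regions were short, with a median width of 276 bases (quartiles 207 and 376, range 200 to 2769). They were assigned to 6137 genes, of which 5344 had 1 such region, 658 had 2 and 135 had more. The centrosomal gene Sfi1 had 7, the highest number. For 2577 regions (36.3%) the same gene also had a region within 1 kb of a TSS, and the other 4520 stood at genes with none. The median gap to the nearest region within 1 kb of any TSS was 27142.5 bases, and 124 regions had a gap of 500 bases or less. The X chromosome held 46 of them (0.648%), against 0.791% of all regions. Protein-coding genes accounted for 59.2% of the assignments, against 77.7% for regions within 1 kb. Long noncoding RNAs accounted for 8.69%, against 6.004%, and pseudogenes for 8.44%, against 3.39%. A further 20.3% had no match in the RefSeq table, against 9.92% of the regions within 1 kb.

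Depth was low at single regions. A median region 1 to 3 kb from a TSS held 47 and 39 reads in KO libraries and 35 and 33 reads in WT libraries, which corresponds to a counting error of 14.6% to 17.4% of the count. Peaks had been called by the authors at 4012 and 3005 of the regions in KO libraries and in 2010 and 2128 in WT libraries. Most regions, 4799, carried a peak in 1 library, 1130 in 2, 576 in 3 and 592 in all 4. The KO libraries were also the deeper ones, and the share of the difference in peak calls that follows depth was not tested. Correlations of log2 CPM across the 7097 regions, which share libraries and are not independent, were 0.778 between the KO libraries and 0.796 between the WT libraries. Between a KO and a WT library they were 0.782 to 0.788. The KO replicates were less alike than any pair of 1 KO and 1 WT library, and the WT replicates slightly more alike.

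The first comparison asked how much of the CUT&Tag signal lay 1 to 3 kb from a TSS in each genotype. The share of reads in regions was 9.99% and 9.90% in KO libraries and 9.90% and 9.89% in WT libraries, or 9.95% ± 0.062 in KO and 9.90% ± 0.0088 in WT (SD, n = 2 each). The values almost touched, and the difference of 0.051 percentage points gave p = 0.333 in an exact two-sided permutation test, the smallest p that 2 against 2 libraries can give. The difference was 0.0079 without KO replicate 1 and 0.095 without KO replicate 2, and as a share of library totals it was 0.023 (exact p = 1). No spike-in was used here, so a gain or loss shared by all regions would not show in such shares.

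In CPM, the read count scaled to the library's reads in regions with TMM factors, the median region had 11.5 and 11.6 CPM in KO libraries and 11.3 and 11.4 CPM in WT libraries. Regions within 1 kb had 13.2 and 13.3 CPM in KO libraries and 14.2 and 14.5 CPM in WT libraries. Distal intergenic regions had 9.76 and 9.78 CPM in KO libraries and 9.70 and 9.34 CPM in WT libraries. Regions 1 to 3 kb away thus stood between the 2 other classes in every library. Regions within 1 kb were wider (median 330 bases). Per kilobase the median over the 4 libraries was 39.0 CPM for regions 1 to 3 kb away, 41.1 CPM within 1 kb, 34.9 CPM in introns and 33.1 CPM for distal regions.

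The step from within 1 kb to 1 to 3 kb was smaller in KO. On a log2 CPM scale, the median of regions 1 to 3 kb away minus the median of regions within 1 kb was -0.19 and -0.20 in KO libraries and -0.32 and -0.33 in WT libraries. The groups did not overlap, and the difference between genotypes was 0.13 (exact two-sided permutation p = 0.333, the smallest possible here). The median log2 fold change, KO over WT, was 0.0092 for regions 1 to 3 kb away, against -0.11 for regions within 1 kb and 0.0065 for all regions tested. At genes with both kinds of region, the region 1 to 3 kb away had more signal than the region within 1 kb in 33.8% of 2577 pairs, and the median log2 ratio of the first to the second was -0.34.

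The side of the TSS made little difference to the level. The median over downstream regions was 11.5 and 11.6 CPM in KO libraries and 11.6 and 11.4 CPM in WT libraries, and over upstream regions 11.5 and 11.3 CPM in KO libraries and 11.3 and 11.1 CPM in WT libraries. Downstream minus upstream, the log2 CPM medians differed by 0.00 and 0.04 in KO libraries and by 0.04 and 0.04 in WT libraries (KO minus WT -0.02, exact two-sided permutation p = 0.333). Regions became fewer with distance on both sides, with 495 upstream and 573 downstream in the 250 bases nearest the 1 kb edge, against 360 and 405 in the 250 bases nearest the 3 kb edge. Median CPM over the 4 libraries stayed within 11.001 to 11.5 in the upstream bins and 10.6 to 11.6 in the downstream bins.

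**Figure D1:**
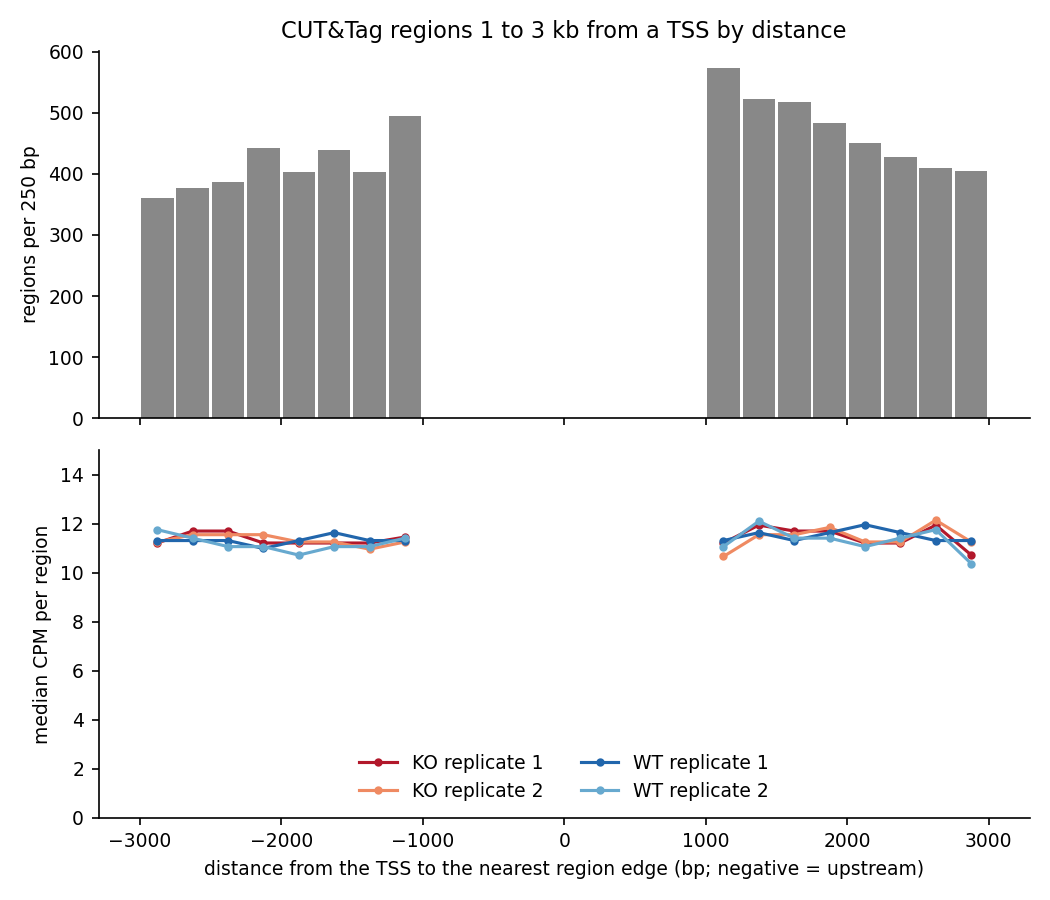
The top panel counts regions in bins of 250 bp by distance from the TSS to the nearest region edge, with upstream distances negative; the bottom panel gives the median CPM of each bin in each KO and WT library. Counts were highest in the bins next to 1 kb (495 upstream, 573 downstream), while the median of all 4 libraries lies between 10.4 and 12.2 CPM in every bin, with the order of the libraries changing from bin to bin.

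Values on either side of the class edges were close. The 445 regions at 901 to 1000 bases, just outside, had a median of 11.8 CPM in KO and 11.6 CPM in WT (means of the 2 libraries), and the 419 regions at 1001 to 1100 bases, just inside, had 11.2 CPM in KO and 11.2 CPM in WT. At the far edge, the 312 regions at 2901 to 3000 bases had 11.4 CPM in KO and 10.9 CPM in WT, and the 309 regions at 3001 to 3100 bases, outside, had 10.99 CPM in KO and 10.82 CPM in WT. Of 380 genes with tested regions on both sides, the downstream region had more signal in 184 (48.4%).

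Slightly over 50% of regions 1 to 3 kb from a TSS lay at genes with little RNA, as over all regions. By the mean TPM of the assigned gene over the 6 RNA-seq libraries, 3639 regions (51.3%) stood at genes under 0.5 TPM, 751 at 0.5 to 5 TPM, 1831 at 5 to 50 TPM and 874 at 50 TPM and over. Over all regions 51.1% stood at genes under 0.5 TPM, and within 1 kb 28.9%. The share of regions whose gene also had a region within 1 kb differed between the classes. It was 67.05% at genes of 50 TPM and over, 61.6% at 5 to 50 TPM, 46.6% at 0.5 to 5 TPM and 14.1% under 0.5 TPM.

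Signal differed little with RNA level. Regions at genes of 50 TPM and over had medians of 12.2 and 11.9 CPM in KO libraries and 12.3 and 12.1 CPM in WT libraries. Regions at genes under 0.5 TPM had 10.98 and 10.97 CPM in KO libraries and 10.7 and 10.4 CPM in WT libraries. The highest medians belonged to the class of 0.5 to 5 TPM, with 12.4 and 12.4 CPM in KO libraries and 12.9 and 12.5 CPM in WT libraries, so the order did not follow the RNA. The class of 5 to 50 TPM had 11.95 and 11.86 CPM in KO libraries and 11.97 and 11.77 CPM in WT libraries. Within 1 kb of a TSS the order did follow the RNA, with medians at genes of 50 TPM and over of 14.4 and 14.8 CPM in KO libraries and 16.5 and 17.3 CPM in WT libraries.

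The gap between the top and the bottom RNA class was narrower in KO. On the log2 CPM scale it was 0.14 and 0.11 in KO libraries and 0.19 and 0.21 in WT libraries, or 0.13 ± 0.03 in KO and 0.20 ± 0.01 in WT (SD, n = 2 each). The groups did not overlap, which gave the smallest possible p of 0.333 (exact two-sided permutation test). Upstream regions had gaps of 0.10 and 0.11 in KO libraries and 0.12 and 0.11 in WT libraries, which overlapped (p = 0.667 in the same exact test). Downstream regions had 0.17 and 0.11 in KO libraries and 0.23 and 0.25 in WT libraries (exact p = 0.333). For regions within 1 kb the gap was 0.31 and 0.34 in KO libraries and 0.48 and 0.57 in WT libraries, wider in each library than at 1 to 3 kb.

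The fold changes by RNA class were as follows. From the lowest to the highest class, the median log2 fold change, KO over WT, was 0.02, -0.0002, 0.0071 and -0.04 at 1 to 3 kb and 0.02, -0.10, -0.14 and -0.18 within 1 kb. The share of regions with a log2 fold change above 0 was 52.3%, 50%, 50.96% and 45.995% at 1 to 3 kb, against 51.9%, 39.4%, 33.7% and 26.9% within 1 kb.

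**Figure D2:**
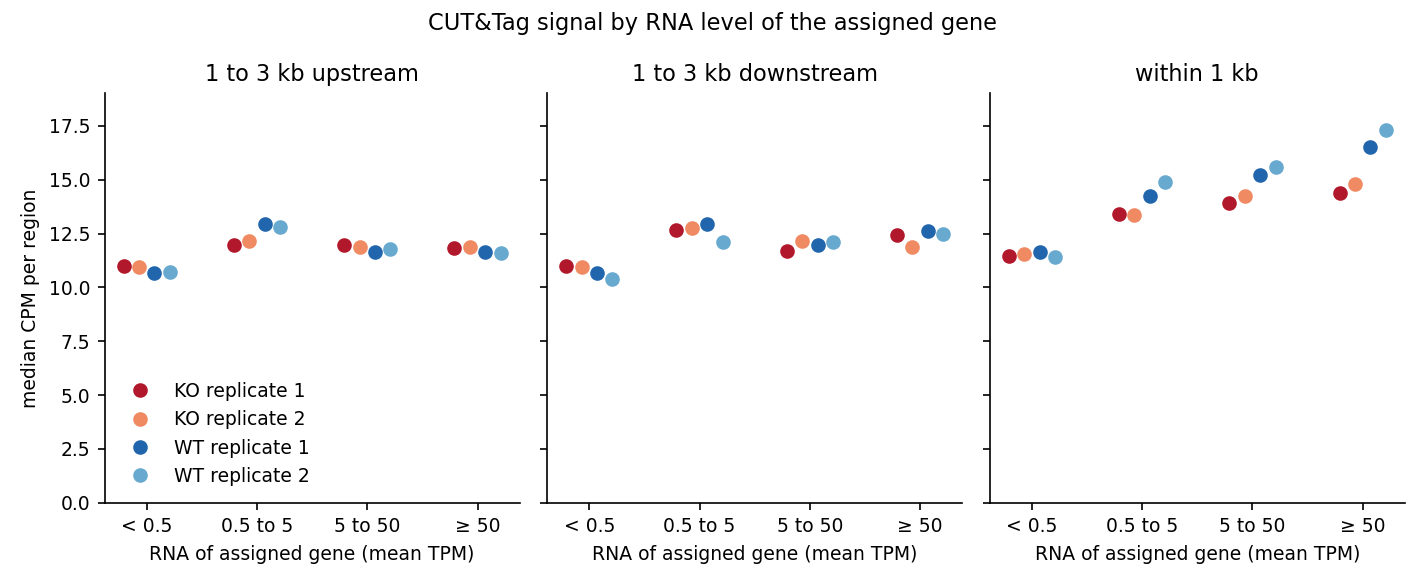
Median CPM per region (linear axis from 0) in each CUT&Tag library, KO replicates left of WT replicates, by mean TPM of the assigned gene, for regions upstream, downstream and, for comparison, within 1 kb of a TSS. At 1 to 3 kb the 4 libraries lie between 10.4 and 12.9 CPM in all classes, whereas within 1 kb at genes of 50 TPM and over the KO libraries lie at 14.4 and 14.8 CPM and the WT libraries at 16.5 and 17.3 CPM.

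The main comparison asked which regions 1 to 3 kb from a TSS differed between KO and WT. Of 7097 regions, 7080 passed the filter on low counts and 17, with at most 58 reads over the 4 libraries, did not. edgeR's quasi-likelihood test, fitted on all 69209 regions that passed, with Benjamini-Hochberg adjustment over all of them, called 1 region at an adjusted p under 0.05, higher in KO, against 5 of 69209 overall (0.00722%), of which 2 were higher (0.00289%) and 3 lower in KO (0.00433%). This was the region downstream of the Nes TSS. DESeq2 also called 1. The next smallest adjusted p was 0.191. An unadjusted p under 0.05 was reached by 332 regions (4.69%), against 5.35% of all regions tested, with 114 higher in KO (1.61%, against 1.70% of all regions) and 218 lower (3.08%, against 3.65%). Over the 7080 regions the log2 fold change had a median of 0.0092, with 5% of regions below -0.65 and 5% above 0.71, and its median standard error was 0.37. The sign of that median was not stable: with 1 library left out it ran from -0.02 to 0.03.

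In a simulation with these libraries' means and sizes, the test recovered 17 of 100 regions changed 2-fold and 68 of 100 changed 4-fold, so a 2-fold change at a single region was usually not detectable at this depth. The changed regions were drawn from all regions except those with low mean counts, so recovery at low counts was not measured. In the authors' deposited table, 174 of the regions 1 to 3 kb away (2.45%) had a p-value under 0.05, against 2.34% of all regions, and their lowest q-value was 1.

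**Figure D3:**
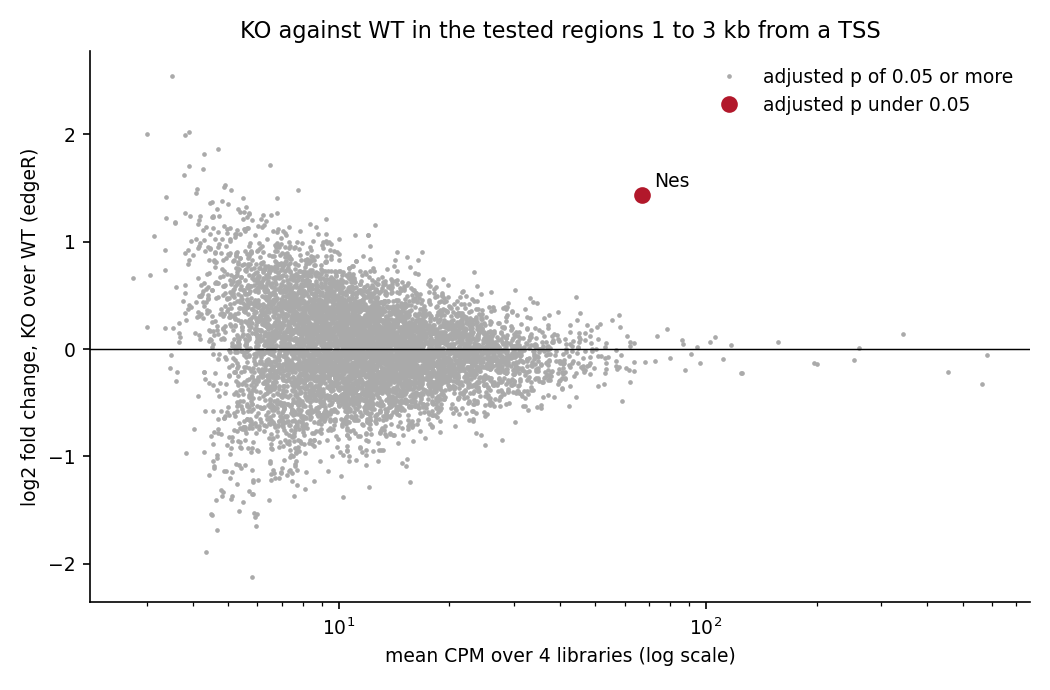
Log2 fold change, KO over WT, against mean CPM over the 4 libraries (log axis) for the 7080 tested regions. The Nes region, at 66.8 CPM and a log2 fold change of 1.43, is the only one with an adjusted p under 0.05, and the spread of the others widens towards low CPM.

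The Nes region (chr3:87881207-87882075, GRCm39, 869 bases) began 2771 bases downstream of the Nes TSS. It held 368 and 355 reads in KO libraries, against 95 and 120 reads in WT libraries. In CPM this was 89.8 and 105 in KO libraries and 30.7 and 41.5 in WT libraries, or 97.5 ± 10.9 in KO and 36.1 ± 7.64 in WT (SD, n = 2 each). Both KO libraries lay far above both WT libraries, and the authors had called a peak in the KO libraries alone. The log2 fold change was 1.43 ± 0.17 (SE), or 2.70-fold, with an adjusted p of 4.58e-13 (edgeR). Over all alternatives of the fit, including each library left out, it ran from 1.23 to 1.66, with adjusted p from 2.77e-14 to 2.72e-05. The authors' deposited table gives a log2 fold change of 1.49 and a p-value of 0.0256 for it.

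The region within 1 kb of the Nes TSS had 22.4 CPM on average and a log2 fold change of 0.90 with an adjusted p of 0.348 (edgeR). Nes RNA measured 1147, 1072 and 842 CPM in KO libraries and 843, 581 and 721 CPM in WT libraries. The lowest KO library lay within the WT range, and the RNA log2 fold change of 0.51 ± 0.17 (SE) had an adjusted p of 0.183 (edgeR). In bulk cells, a change in the share of a cell type and a change in RNA per cell cannot be told apart.

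After Nes, the 7 regions with the smallest p among those higher in KO were assigned to Lpin1, Gm54986, Gm29610, B3galt4, Tram1, Hoxb13 and 2310008N11Rik. Their log2 fold changes were 0.72 to 1.72 and their adjusted p was 0.594 to 0.748 (edgeR). They were chosen by their p, so their separation between genotypes follows from the choice. Lpin1 encodes a phosphatidate phosphatase of lipid synthesis. Its upstream region (chr12:16699487-16699866, 2520 bases from the TSS) had 17.3 and 17.5 CPM in KO libraries and 11.3 and 4.15 CPM in WT libraries. The region of B3galt4, a galactosyltransferase of ganglioside synthesis, had 31.5 and 26.4 CPM in KO libraries and 13.3 and 22.1 CPM in WT libraries. Hoxb13, a posterior homeobox gene with 0 TPM in these cells, had 17.8 and 14.5 CPM in KO libraries and 4.85 and 10.7 CPM in WT libraries.

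The 8 regions with the smallest p among those lower in KO were assigned to 6820431F20Rik, Col16a1, Ogfr, Tns1, Gm57020, Dlx1as, Mir3083 and Ttyh3. Their log2 fold changes were -1.38 to -0.80 and their adjusted p 0.191 to 0.543 (edgeR). Col16a1 encodes a fibril-associated collagen. Its region (chr4:129975665-129975978, 2862 bases downstream) had 20.7 and 18.97 CPM in KO libraries and 37.2 and 34.6 CPM in WT libraries. The log2 fold change there was -0.85 ± 0.22 (SE). The region of Ogfr, the opioid growth factor receptor (chr2:180228460-180229060, 1978 bases upstream), had 17.6 and 17.5 CPM in KO libraries and 29.4 and 35.6 CPM in WT libraries. The region upstream of Dlx1as, a transcript antisense to the homeobox gene Dlx1, had 8.54 and 2.67 CPM in KO libraries and 17.1 and 12.8 CPM in WT libraries. Of these 8 genes, the 7 tested by RNA-seq had log2 fold changes of -0.53 to 0.55, and none was called. Reads of antisense transcripts such as Dlx1as cannot be told from those of their partners, since the strand setting of the RNA counts is not given.

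**Figure D4:**
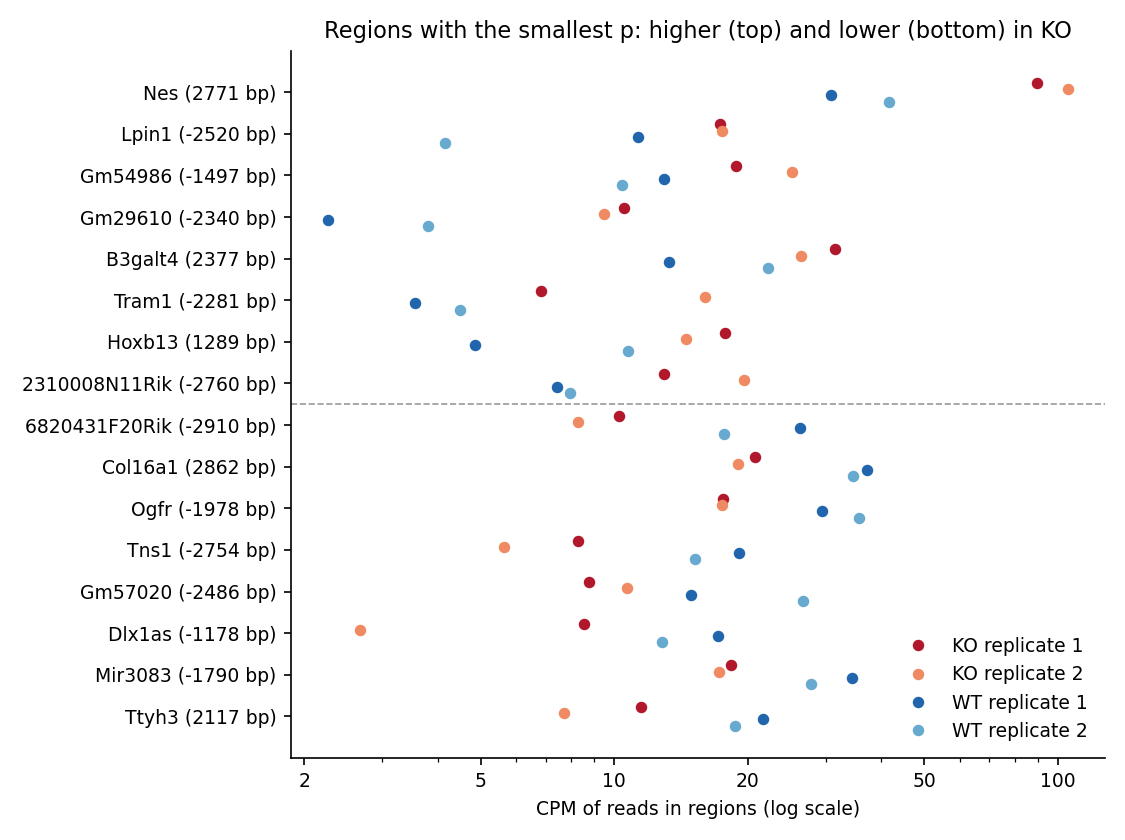
CPM in each library (log axis) of the 8 regions with the smallest p among those higher in KO (top) and the 8 among those lower in KO (bottom), labelled by assigned gene and signed distance from the TSS. Only the Nes region, with 89.8 and 105 CPM in KO and 30.7 and 41.5 CPM in WT, has an adjusted p under 0.05.

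The 6820431F20Rik region lies in a segment of chromosome 8 that earlier results on these libraries had singled out. The region, 2910 bases upstream of the TSS (chr8:20140576-20140812), held 10.2 and 8.3 CPM in KO libraries and 26.2 and 17.6 CPM in WT libraries. The segment held 12 regions 1 to 3 kb from a TSS (between positions 19734267 and 21432665), of which 11 had a negative log2 fold change; 0 were called by edgeR or DESeq2 and 5 had an unadjusted p under 0.05, against 5.35% of all regions, with a median of -0.42. Since the segment was chosen from these libraries for its lower signal in KO, these counts describe the choice and support nothing. Without them the median over the remaining 7085 regions was 0.01.

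Which libraries carried a peak call followed the same counts, so the following is a description. The 3445 regions called in 1 KO library alone had a median log2 fold change of 0.22, and the 1354 called in 1 WT library alone had -0.42. The 363 called in both KO libraries and no WT library had 0.27, and the 72 called in both WT libraries and no KO library had -0.52. The 1863 regions with a peak in both genotypes had a median of 19.4 CPM and a median log2 fold change of -0.10. Of them, those with a peak in all 4 libraries had medians of 26.1 and 27.6 CPM in KO libraries and 28.8 and 29.2 CPM in WT libraries.

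**Figure D5:**
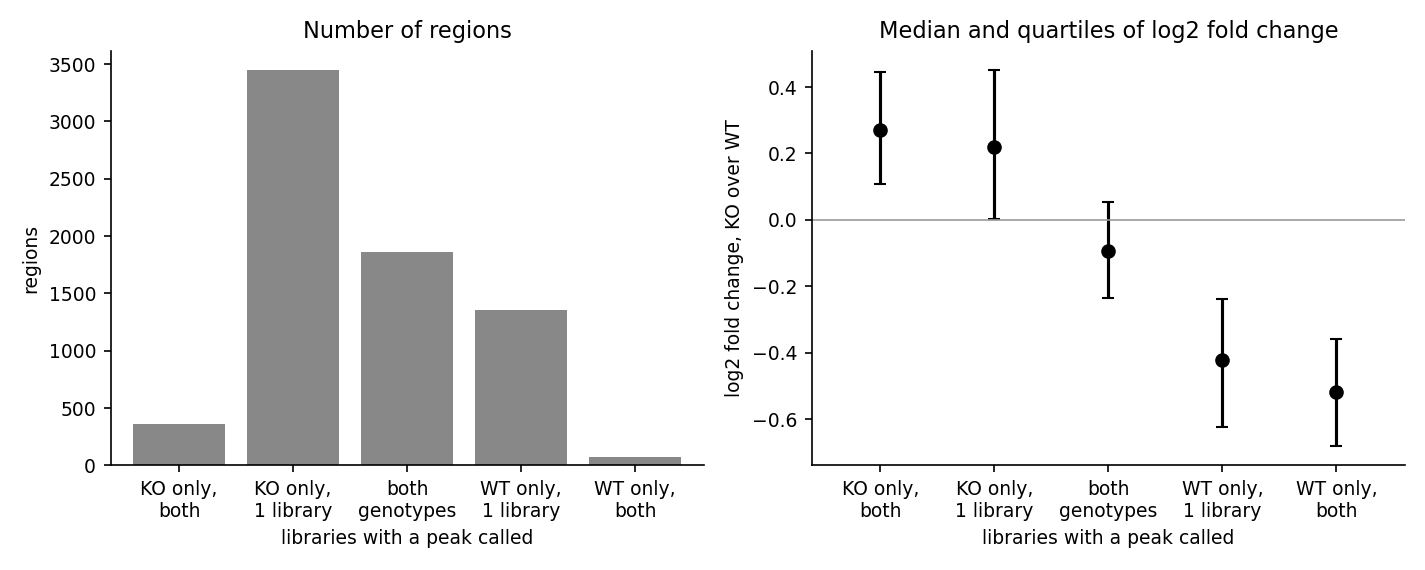
Number of regions 1 to 3 kb from a TSS (left) and median log2 fold change, KO over WT, with its quartiles (right), by the libraries with a peak call. The median runs from 0.27 for regions called in both KO libraries alone to -0.52 for those called in both WT libraries alone; peak calls and fold changes come from the same reads.

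Among the strongest regions, chosen by their mean over the 4 libraries, only the Nes region was called. Its KO libraries raised that mean (97.5 CPM in KO, 36.1 CPM in WT). Its place in the set is therefore not independent of the call, which says nothing about strong regions. Gm13717, a predicted gene, had the highest level, 609 and 535 CPM in KO libraries and 648 and 539 CPM in WT libraries, followed by Gm33838 with 473 and 528 CPM in KO libraries and 658 and 598 CPM in WT libraries. Per kilobase Gm33838 was higher, with 1047 CPM against 427 CPM for Gm13717. Sfi1, a centrin-binding protein of the centrosome, had 425 and 422 CPM in KO libraries and 534 and 447 CPM in WT libraries at its region 1325 bases downstream (chr11:3134229-3136030). Its 7 regions spanned 12.1 to 457 CPM, with log2 fold changes of -0.48 to 0.01 and 1 of them above 0. Ppp6r1, a regulatory subunit of protein phosphatase 6, had 191 and 191 CPM in KO libraries and 207 and 215 CPM in WT libraries. Of the 16 strongest regions by side and distance, 8 stood at genes named as predicted and 1 at a pseudogene of ferritin light chain. How reads that map to several copies were handled is not given, so levels at predicted genes, pseudogenes and Sfi1 are uncertain.

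RNA-seq calls were then set beside the regions. edgeR called 525 of 15298 genes (3.43%), 271 higher in KO (1.77%) and 254 lower (1.66%). Of 2872 tested genes with a region 1 to 3 kb from a TSS, 64 were higher (2.23%) and 63 lower (2.19%). These counts moved with single libraries and with the fit: without WT replicate 3 the RNA calls over all genes numbered 145, without KO replicate 1 or KO replicate 2 they numbered 179 each, and without WT replicate 2 they numbered 313. They numbered 908 by DESeq2 and 1999 with the mitochondrial share of counts as a covariate.

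The 81 regions at genes higher in KO had a median CUT&Tag log2 fold change of 0.0015, the 79 at genes lower in KO had -0.02, and the 3398 at genes tested and not called had -0.0050. With 1 CUT&Tag library left out the first ran from -0.06 to 0.04 and the second from -0.11 to 0.05. The second also depended on the RNA calls: it was -0.14 without RNA-seq KO replicate 1, -0.18 without KO replicate 2, -0.13 without WT replicate 2, -0.15 without WT replicate 3 and -0.16 with a replicate block in the RNA fit. No region at a called gene was itself called by edgeR or DESeq2. Over all regions edgeR called 5 of 69209 (0.00722%), so this absence says little about RNA and CUT&Tag. At an unadjusted p under 0.05 there were 4 of 81 regions at higher genes (4.94%), all lower in KO by CUT&Tag, and 4 of 79 at lower genes (5.06%), 2 in each direction, against 5.35% of all regions. Lower values in KO also prevailed elsewhere at that threshold. They made up 121 of 168 regions at genes not called, and 2529 of 3704 over all regions.

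The 4 at genes with more RNA in KO belonged to Scrn1, Cdh13, Ccdc40 and Pde9a. Cdh13, a cadherin without a transmembrane part, had 10.7 and 6.22 CPM in KO libraries and 20.1 and 11.1 CPM in WT libraries, with an RNA log2 fold change of 0.80. Pde9a, a cyclic GMP phosphodiesterase, had 34.1 and 36.8 CPM in KO libraries and 45.0 and 46.7 CPM in WT libraries, with an RNA log2 fold change of 0.69. The 4 at genes with less RNA in KO included 2 of Lpin1 and 1 of Mcc. Downstream of Lpin1 (chr12:16693773-16694308, 2659 bases from the TSS) the CPM were 22.0 and 30.8 in KO libraries and 38.2 and 37.4 in WT libraries, so its downstream region had a negative log2 fold change (-0.53) and its upstream region a positive one (1.15). Lpin1 RNA fell in KO, with a log2 fold change of -0.69 and an adjusted p of 0.0168 (edgeR). Opposite signs on the 2 sides were found at 199 of 380 genes (52.4%).

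Among called genes with a mean RNA level of at least 1 on the log2 CPM scale and no overlap between genotypes, predicted genes left out, the 6 with the largest RNA change in each direction had no region called by edgeR or DESeq2. With 0.00722% of all regions called by edgeR, so few regions could hardly show a call. Sulf1, a sulfatase that trims heparan sulfate, had an RNA log2 fold change of 2.74 (adjusted p 9.88e-05, edgeR). Its upstream region had 10.2 and 16.6 CPM in KO libraries and 14.9 and 10.7 CPM in WT libraries, and its downstream region 12.2 and 17.2 CPM in KO libraries and 13.6 and 16.3 CPM in WT libraries, both overlapping. Thbs2, a thrombospondin of the matrix, rose by 3.02 (log2) in RNA and had 15.9 and 13.6 CPM in KO libraries and 15.2 and 13.5 CPM in WT libraries. Lhx2, a LIM homeobox factor of forebrain progenitors, rose by 2.35 in RNA and had 8.05 and 3.85 CPM in KO libraries and 8.09 and 5.19 CPM in WT libraries. Cdk6, a kinase of the G1 phase, rose by 2.30 and had 6.59 and 5.04 CPM in KO libraries and 12.3 and 6.92 CPM in WT libraries. The secreted Wnt antagonist Sfrp1 (RNA 2.35) and the long noncoding Sox2ot (RNA 2.06) had CUT&Tag log2 fold changes of -0.08 and -0.56, and all adjusted p at these regions were at least 0.933 by edgeR. The Sox2ot value was -1.29 without KO replicate 1 and -0.11 without KO replicate 2. Sox2ot overlaps Sox2, so RNA reads may be shared between them.

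Among genes with less RNA in KO, Bcas1, a marker of newly forming oligodendrocytes, had an RNA log2 fold change of -2.13. Its region had 23.7 and 25.2 CPM in KO libraries and 23.0 and 19.7 CPM in WT libraries. The homeobox gene En2 of the midbrain and hindbrain had -1.74 in RNA, with 7.32 and 9.19 CPM in KO libraries and 13.6 and 8.997 CPM in WT libraries. Zfhx4 (-1.67 in RNA) had 5.85 and 5.63 CPM in KO libraries and 1.62 and 2.08 CPM in WT libraries, from 5 and 6 reads in WT. The lactate transporter Slc16a3 (-2.37), the protease inhibitor Serpinb1a (-2.39) and the Wnt receptor Fzd9 (-1.93) had CUT&Tag log2 fold changes of 0.69, 0.14 and -0.27. The adjusted p at the regions of these genes was 0.933 to 0.981 (edgeR).

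Regions 1 to 3 kb from a TSS occurred at 12 of 33 neural stem and radial glia genes (36.4%), against 10.7% of all genes in the RNA table. Of those 57180 genes, 15298 passed the filter for RNA testing, and 2872 of these 15298 had such a region. All 33 neural stem and radial glia genes passed it, so the tested genes are the closer comparison for them. In the other lists the share ran from 6.25% (genes expressed in all cells) to 30.8% (neuron genes), with 27.5% at signalling genes. Of their 13 regions, 1 was called, the Nes region, 7 had a log2 fold change above 0, and the median was 0.02, against 0.0065 over all regions. Gfap, the intermediate filament of astrocytes and adult neural stem cells, had 28.3 and 29.6 CPM in KO libraries and 42.4 and 42.2 CPM in WT libraries. These did not overlap, with a log2 fold change of -0.55 and an adjusted p of 0.773 (edgeR). Cdh2, the neural cadherin, had 30.5 and 32.3 CPM in KO libraries and 39.1 and 38.1 CPM in WT libraries (adjusted p 0.933, edgeR). Nfix, a transcription factor of stem cell quiescence, had 24.6 and 27.6 CPM in KO libraries and 30.7 and 25.3 CPM in WT libraries, which overlapped. By RNA-seq, 3 of 33 genes of this list rose in KO and 2 fell, against 1.77% higher and 1.66% lower over all tested genes.

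In the other 10 lists edgeR and DESeq2 called 0 regions, against 0.00722% of all regions called by edgeR. At an unadjusted p under 0.05 edgeR had 1 of 17 regions at the signalling genes and 1 of 8 at the arginine methylation and JmjC genes. It had 0 elsewhere, against 5.35% of all regions, so these counts say little about the lists. The intermediate progenitor and neuroblast list had 2 regions, at Neurod1 and Igfbpl1, with log2 fold changes of 0.16 and 0.21. Neurod1, a neurogenic bHLH factor, had 26.1 and 27.6 CPM in KO libraries and 25.2 and 22.8 CPM in WT libraries, while its RNA rose by 2.93 (adjusted p 0.0123, edgeR). Of 16 tested genes in this list 5 rose in RNA and 0 fell, against 1.77% higher and 1.66% lower over all tested genes, and its summed TPM was 1496 to 1674 in KO libraries and 1078 to 1289 in WT libraries. The neuron list had 11 regions at 8 of 26 genes, with 6 above 0 and a median of 0.10. Of 20 tested neuron genes 4 rose in RNA and 0 fell, against the same 1.77% and 1.66% over all genes, and the summed TPM was 863 to 893 in KO libraries and 651 to 716 in WT libraries. The neuronal nuclear gene Rbfox3 averaged 0.686 TPM in KO and 0.704 TPM in WT, and its region had 16.3 and 15.7 CPM in KO libraries and 15.2 and 18.3 CPM in WT libraries. The part of a shift in cell types in these values was not tested.

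Glial lineage genes had 4 regions, among them those of Aqp4, Aldh1l1 and Pdgfra, with a median log2 fold change of -0.16. Of 20 tested glial genes, 1 rose in RNA and 4 fell (1.77% and 1.66% over all genes), and the summed TPM overlapped, at 3425 to 4673 in KO libraries and 3772 to 5876 in WT libraries. The 54 patterning transcription factors had 6 regions, with 1 above 0 and a median of -0.08. In RNA, 7 of 33 tested patterning genes rose and 8 fell, against 1.77% higher and 1.66% lower over all tested genes. Otx1, a homeobox factor of the forebrain and midbrain, had an RNA log2 fold change of -1.48, with 14.6 and 13.3 CPM in KO libraries and 17.5 and 22.5 CPM in WT libraries at its region (adjusted p 0.933, edgeR). Meis2, a homeobox cofactor, rose by 1.11 in RNA and had a CUT&Tag log2 fold change of -0.05.

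Notch, Wnt, hedgehog, FGF and TGF-beta genes had 17 regions at 14 of 51 genes, with 7 above 0 and a median log2 fold change of -0.08. Lrp6, a Wnt coreceptor, had 42.9 and 39.1 CPM in KO libraries and 34.6 and 40.5 CPM in WT libraries. Sufu, an inhibitor of hedgehog signalling, had 34.9 and 29.0 CPM in KO libraries and 34.9 and 39.1 CPM in WT libraries. By RNA-seq, 5 of 47 tested genes of these pathways rose and 2 fell (1.77% and 1.66% over all genes). Cell cycle genes had 4 regions, at Mcm3, Cdk1, Cdkn1c and Cdk6, and 4 of 38 rose in RNA and 1 fell (1.77% and 1.66% over all genes). Arginine methylation and JmjC oxygenase genes had 8 regions at 7 of 30 genes, with a median of -0.18. Kdm6b, a demethylase of H3 lysine 27, had 30.7 and 37.1 CPM in KO libraries and 36.5 and 33.9 CPM in WT libraries, and Carm1, an arginine methyltransferase, 10.98 and 8.003 CPM in KO libraries and 9.38 and 7.27 CPM in WT libraries. In RNA, 0 of 28 tested genes of this list rose and 1 fell (1.77% and 1.66% over all genes), which was Riox2, the knocked-out gene itself.

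Genes expressed in all cells had 2 regions at 2 of 32 genes. Actb, the cytoskeletal actin, had 19.8 and 11.6 CPM in KO libraries and 23.0 and 18.3 CPM in WT libraries. Genes listed as silent in brain had 5 regions at 4 of 30 genes and genes of microglia, vessels, mesenchyme and blood 4 regions at 4 of 30. The median CPM of their regions was 15.7 and 14.4, against 14.3 for neural stem and radial glia genes, 17.1 for intermediate progenitors and neuroblasts, 12.0039 for neurons, 11.3 for the glial lineage and 9.57 for patterning factors. The region of the muscle gene Myh7 had 16.1 and 17.5 CPM in KO libraries and 14.2 and 17.6 CPM in WT libraries. Myh7 RNA averaged 0.86 TPM, and the list named silent in brain was not wholly silent in these cells. Of its 7 genes tested by RNA-seq, 0 were higher and 1 lower in KO (1.77% and 1.66% over all genes). Its summed RNA was 23.6 to 30.2 TPM in KO libraries and 18.1 to 24.3 TPM in WT libraries. Summed RNA of the microglial, vascular, mesenchymal and blood list was 58.7 to 70.2 TPM in KO libraries and 48.5 to 73.5 TPM in WT libraries, with 2 of 11 tested genes higher in KO and 2 lower (1.77% and 1.66% over all genes).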

How the data were processed

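RNA-seq expected counts per Ensembl gene were deposited by the authors, unscaled, and were rounded to whole numbers here. The authors also deposited read counts per merged CUT&Tag region, RPM, a log2 fold change, a p-value, a q-value, peak marks, an annotation, the assigned gene and its distance. The deposited RPM are the count plus 1 over a library total, which the values show. HISAT2, StringTie and GRCm39 appear in the submitters' processing notes. The peak caller, the annotation release and the counting of strands and of reads with several matches were not stated in the labels or headers read.

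KO was tested against WT, on all regions and on all genes, with edgeR 4.0.16 in R 4.3.3 (glmQLFit with robust dispersion, TMM, filterByExpr with a minimum count of 10), adjusted after Benjamini and Hochberg, at a threshold of 0.05. CPM are relative to reads in regions, log2 CPM use a prior count of 2, and TPM were computed from the rounded counts and the deposited gene lengths. Single values per library were compared with exact permutation tests. Counting errors cover counting only. The test was checked on simulated data, where RNA-seq calls recovered 82 of 100 genes changed 2-fold, drawn without genes of low mean count. Replicates differed by more than sampling noise (chi-square per region 2.61 in KO and 2.29 in WT), so each counted as 1 replicate. RNA counts without a symbol were 0.138% of the total.

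Members, lists and naming rule were chosen with earlier results of these data known. The rule named 8 regions of smallest p per direction, the 4 strongest of each side and distance band, up to 4 strongest regions per list, those at the 6 genes with the largest RNA change in each direction (called, mean log2 CPM of at least 1, groups not overlapping, predicted and clone-named genes left out), and any at Nes or Riox2; the regions at called genes with an unadjusted p under 0.05 and the genes with several regions were named after their values were seen. Alternatives were DESeq2 1.42.0, RLE scaling, library totals, other filters, a replicate block, other definitions of members and each library left out. Promoter sequences came from RefSeq (GRCm38.p6). The region sequences planned for a GRCm39 genome were not used here. Some regions that the rule named are not reported here.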

Additional observations from a re-analysis of the deposited data

How the results depend on the processing

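The call at Nes was kept, as 1 region higher in KO, under RLE scaling, library totals, DESeq2, both other filters, no robust dispersion, the replicate block and each CUT&Tag library left out, where the lone library of a genotype is taken to vary as the other genotype does. Same-numbered CUT&Tag libraries had a correlation of deviations of 0.0093 over the regions and those of RNA-seq 0.55, -0.47 and 0.30. Deviations within so few libraries constrain one another, so these values cannot tell whether the numbers pair the samples. With the block the CUT&Tag count remained 1 and the RNA calls over all genes were 229. The RNA calls were 908 by DESeq2 and 1999 with the mitochondrial share as a covariate, and 145 to 506 with a library left out, against 525. The median log2 fold change of the regions, 0.0092, was 0.087 with library totals, 0.015 by DESeq2, 0.016 at 1 to 2 kb, 0.0017 at 2 to 3 kb, -0.062 with peaks in at least 2 libraries, 0.025 at genes with no region within 1 kb, -0.095 with peaks in both genotypes (chosen after seeing the data) and -0.022 to 0.035 with a library left out. Downstream minus upstream was -0.0083 at 2 to 3 kb alone. The gap between RNA classes was 0.11 with classes by CPM, 0.22 at genes with no region within 1 kb and 0.081 with peaks in at least 3 libraries (chosen after seeing the data), against 0.16. At genes higher by RNA-seq the median CUT&Tag log2 fold change was 0.084 with library totals, -0.056 to 0.022 with an RNA-seq library left out (-0.041 without KO replicate 1 or WT replicate 1) and -0.059 to 0.040 with a CUT&Tag library left out (-0.0396 without KO replicate 2). At genes lower by RNA-seq it was 0.060 with library totals, -0.16 with the RNA-seq block, -0.18 to -0.02 with an RNA-seq library left out (-0.140 without KO replicate 1, -0.131 without WT replicate 2, -0.152 without WT replicate 3) and -0.11 to 0.05 with a CUT&Tag library left out. With library totals the downstream Sulf1 region turned to 0.044 and the Sfrp1 region to 0.0017. With a library left out, log2 fold changes changed sign at Fzd9 (-0.53 to 0.056), Lhx2 (-0.78 to 0.27), Sulf1 upstream (-0.32 to 0.37) and downstream (-0.29 to 0.20), Thbs2 (-0.075 to 0.14) and Sfrp1 (-0.30 to 0.19). For all of these the cause was not tested. Depth limits single regions: a median of 33 to 47 reads per library.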
